A study of Homo sapiens with 12 samples.

Results

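Keratins form the largest branch of the intermediate filament family. The genes described here are the 55 protein-coding genes whose GENCODE v44 name is KRT followed by digits and at most one letter, out of 58037 genes in the counts table and 19629 protein-coding genes matched to GENCODE v44. Keratin-associated protein genes (KRTAP), KRTCAP, KRTDAP and pseudogenes were left out of the members. The RNA-seq experiment comprised 12 samples of HCT116, a human colorectal carcinoma line of epithelial origin with a wild-type genotype label, in 4 conditions of 3 samples each. The cells were exposed for 8 h to DMSO, 10 uM Nutlin-3a (an MDM2 inhibitor that activates p53), 20 nM NVP-2 (an inhibitor of the P-TEFb kinase CDK9), or Nutlin-3a with NVP-2 at the same doses. In the table, however, the 12 sample columns were copies of one another, with 0 of 58037 genes differing between any pair. The column named for the first DMSO sample was therefore used as 1 HCT116 profile with a total of 22720718 counts, and the treatment behind its values is not known. No effect of Nutlin-3a or NVP-2 on a keratin gene was computed, no replicate spread exists, and all intervals below cover counting error only.

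Each keratin filament is built from heterodimers of an acidic type I and a basic type II keratin, so that an epithelial cell needs at least one gene of each type. Simple epithelia such as the gut lining are known for KRT8 paired with KRT18, together with KRT19 and, in intestinal epithelium, KRT20. Stratified epithelia use KRT5 with KRT14 in the basal layer and switch to pairs such as KRT1 with KRT10 as cells differentiate, whereas hair follicles have their own sets for the inner root sheath and the hair shaft. By these textbook uses the members were sorted into 5 simple-epithelial, 20 stratified, 9 inner root sheath and companion layer, and 17 hair keratins, with 4 genes (KRT23, KRT24, KRT80 and KRT222) not placed. By type, 29 of them were type I and 26 type II.

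Processed copies of keratin mRNAs are scattered through the human genome, and reads from a keratin gene can resemble them closely. Therefore, a stretch of 75 bases, the read length, is shown first for KRT18, the most abundant type I keratin, beside pseudogenes named for it that also received counts. The stretch lies in exon 3 of the canonical transcript, at chr12:52950832-52950906 on the plus strand of hg38, starting at base 583 of the coding sequence. It is set beside KRT18P17 (chr3:12788017-12788091, minus strand) with 7 differing bases and KRT18P4 (chr20:49957325-49957399, plus strand) with 5, the differing bases being given in capitals.
KRT18: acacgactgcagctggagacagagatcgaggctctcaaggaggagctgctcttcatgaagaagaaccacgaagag
KRT18P17: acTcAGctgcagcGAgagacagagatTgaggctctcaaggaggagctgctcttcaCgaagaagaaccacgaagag
KRT18P4: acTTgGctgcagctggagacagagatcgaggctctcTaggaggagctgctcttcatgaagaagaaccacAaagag
Reads from such stretches are told apart by a few bases, 5 and 7 in this example.

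The keratin profile of HCT116 was carried by KRT8, KRT18 and KRT19. KRT8, the type II keratin of simple epithelia, had 80391 counts, or 3538 CPM (counts scaled to a total of 1000000; 95% exact Poisson interval 3514 to 3563). Its type I partner KRT18 had 34234 counts, or 1507 CPM (1491 to 1523), and KRT19, a type I keratin with an unusually short tail, had 21926 counts, or 965 CPM (952 to 978). Together they held 98.9% of the 138098 keratin counts, and all keratins together held 0.608% of the counts of the profile. By counts KRT8 ranked 19th, KRT18 55th and KRT19 112th of the 19629 protein-coding genes.

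Only 15 of the 55 keratin genes reached 10 counts, or 27.3%, whereas 62.8% of all protein-coding genes did. Another 19 keratin genes had 1 to 9 counts and 21 had none. With 3 counts as the limit that a count of 0 allows, a gene without counts could be present at up to 0.132 CPM, and the upper end of its two-sided Poisson interval was 0.162 CPM. An RPKM (the CPM of a gene divided by the length of its merged exons in kilobases) of at least 1, the expression filter in the study's methods, was met by 8 keratin genes, against 44.6% of all protein-coding genes. With the canonical transcript as length, 9 keratin genes met it, against 49.1%. The median RPKM on merged exons was 0.0272 over the keratins and 0.589 over all protein-coding genes. The family thus combined members near the top of the profile with a majority that was close to or at 0.

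**Figure D1:**
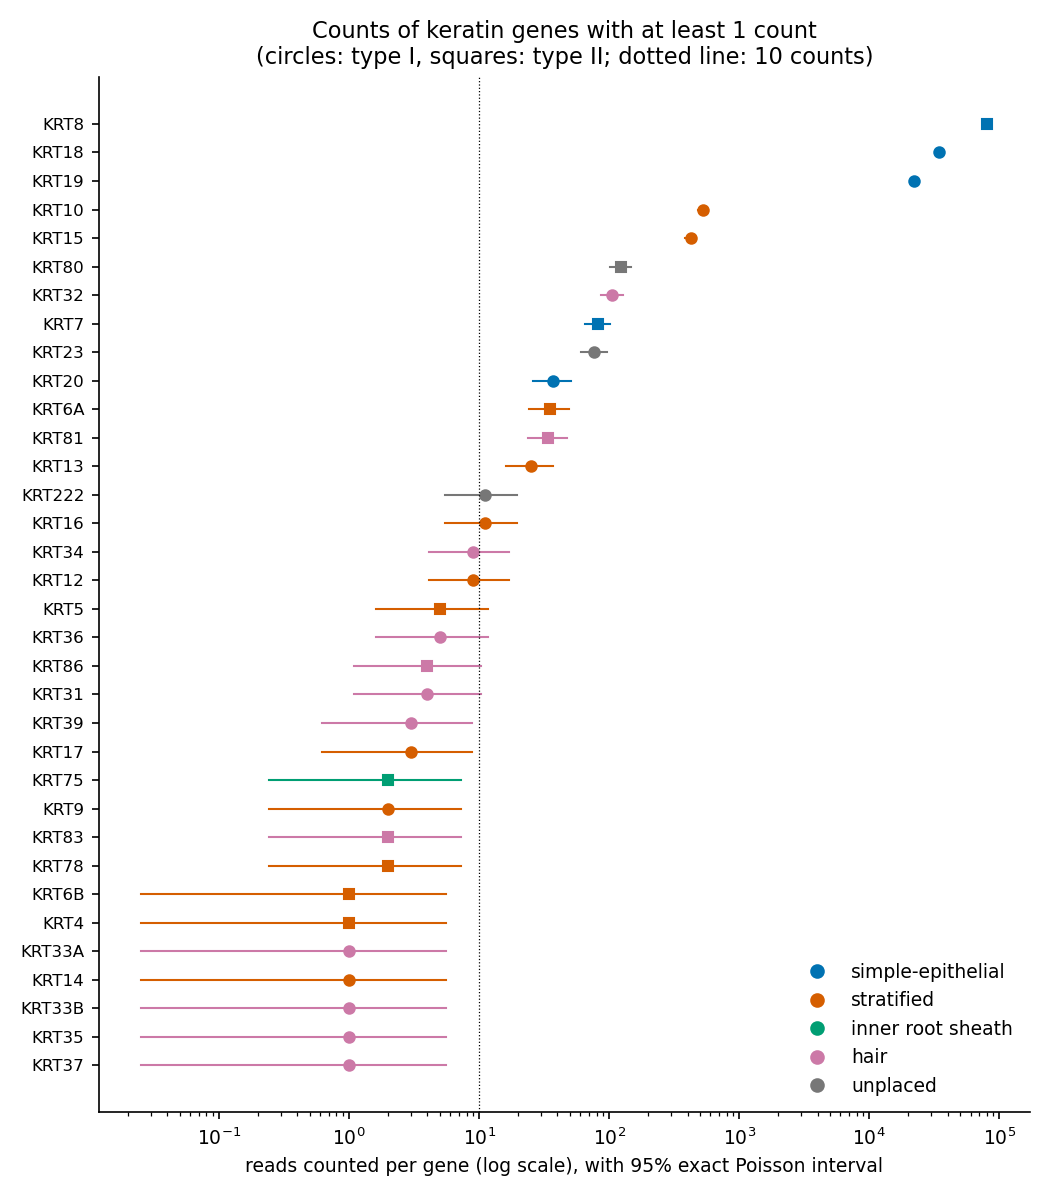
Counts of the 34 keratin genes with at least 1 count, on a log axis, with 95% exact Poisson intervals as horizontal lines; circles are type I and squares type II, colours give the class, and the dotted line marks 10 counts. KRT8, KRT18 and KRT19 lie between 21926 and 80391 counts, the next gene, KRT10, is at 525, and the other 21 members had 0 counts and are not drawn.

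The simple-epithelial class comprised 136670 counts, 99.0% of the keratin counts (95% Wilson interval 98.9 to 99.0). All 5 genes of this class passed 10 counts, against 62.8% of all protein-coding genes, but their levels fell into separate ranges. Per kilobase of merged exons, KRT8 stood at an RPKM of 514 (511 to 518), KRT18 at 491 (486 to 496) and KRT19 at 413 (408 to 419). These intervals did not overlap. KRT7, a type II keratin of ductal and glandular epithelia, had 82 counts and an RPKM of 0.902 (0.718 to 1.12). KRT20, the type I keratin of intestinal epithelium that is used with KRT7 in the pathology of colon carcinoma, had 37 counts and an RPKM of 0.851 (0.599 to 1.17). The levels of KRT7 and KRT20 were not distinguishable on this scale at this depth, and both lay far under the 3 leading genes. KRT7 also overlaps the hair keratin KRT86 by 2887 bp on the same strand.

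The length given to a gene changes some of these levels. KRT8 has 6881 bp of merged exons in GENCODE v44 but a canonical transcript of 1784 nt, a ratio of 3.86. For KRT15 the ratio is 3.49, for KRT7 2.46 and for KRT18 2.17. Per kilobase of canonical transcript, the RPKM was 1983 for KRT8, 1066 for KRT18 and 694 for KRT19, so that KRT8 exceeded KRT18 by 1.86 times instead of 1.05 times. The order of these 3 genes was the same on both scales. On the canonical scale KRT7 was at 2.22 (1.77 to 2.76) and KRT20 at 0.903 (0.636 to 1.24), and their intervals no longer overlapped. Which transcript each gene used was not measured by these counts.

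Among the stratified keratins, 5 of 20 reached 10 counts, 8 had 1 to 9 and 7 had none. The share at 10 counts was 25%, against 62.8% of all protein-coding genes. The class held 1045 counts, 0.757% of the keratin counts (0.712 to 0.804). KRT10, the type I keratin of suprabasal epidermis, had 525 counts and an RPKM of 10.7 (9.79 to 11.6). The lncRNA gene KRT10-AS1, on the opposite strand of KRT10, had 359 counts. KRT15, a type I keratin of basal cells, had 425 counts. Its RPKM was 3.13 (2.84 to 3.45) on merged exons and 10.9 on the canonical transcript, where its interval overlapped that of KRT10 at 10.8 (9.88 to 11.7). The stress-associated KRT6A had 35 counts and KRT16 had 11, and KRT13, a keratin of internal stratified mucosa, had 25. The drop from KRT19 to KRT10 was 38.7 times in RPKM on merged exons and 64.4 times on canonical transcripts.

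The remaining stratified keratins were at or near 0. KRT12, of the cornea, had 9 counts. KRT5, which defines basal keratinocytes, had 5 counts and its partner KRT14 had 1. KRT17 had 3 counts, KRT9 and KRT78 had 2 each, and KRT4 and KRT6B had 1 each. KRT1, KRT2, KRT3, KRT6C, KRT76, KRT77 and KRT79 had 0 counts.

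Keratins of the hair follicle were mostly at or near 0 counts. In the inner root sheath and companion layer set, KRT75 had 2 counts, and KRT25, KRT26, KRT27, KRT28, KRT71, KRT72, KRT73 and KRT74 had 0. Of the 17 hair keratins, 2 reached 10 counts (11.8%, against 62.8% of all protein-coding genes) and 5 had none. KRT32, a type I hair keratin, had 105 counts and an RPKM of 2.30 (1.89 to 2.79) on either length, above KRT7 and KRT20 on merged exons and above KRT20 on both lengths. KRT81, a type II hair keratin, had 34 counts and an RPKM of 0.776 (0.537 to 1.08). KRT34 had 9 counts, KRT36 had 5, KRT31 and KRT86 had 4 each, KRT39 had 3 and KRT83 had 2. KRT33A, KRT33B, KRT35 and KRT37 had 1 count each, and KRT38, KRT40, KRT82, KRT84 and KRT85 had 0. The hair class as a whole held 170 counts, 0.123% of the keratin counts (0.106 to 0.143).

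Of the genes not placed in a class, KRT80, a type II keratin, had 123 counts and an RPKM of 1.24 (1.03 to 1.48). KRT23, a type I keratin, had 77 counts and an RPKM of 1.16 (0.919 to 1.46). These intervals overlapped each other and that of KRT7. KRT222, which overlaps another protein-coding gene on its own strand by 10477 bp, had 11 counts, and KRT24 had 0.

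Whether the profile held more type I or type II keratin depended on the scale. Type II genes had 80682 counts and type I genes 57416, so that type I made up 41.6% (95% exact binomial interval 41.3 to 41.8). In RPKM on merged exons the order was the opposite, with a type I total of 924 against a type II total of 518, or 64.1% type I. In RPKM on canonical transcripts the totals were 1789 and 1989, or 47.4% type I. KRT8 alone made up 514 of the type II total on merged exons and 1983 of that on canonical transcripts. When KRT8 and KRT18 were left out, type I held 23182 counts and type II 291, which leaves type I at 98.8%.

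**Figure D2:**
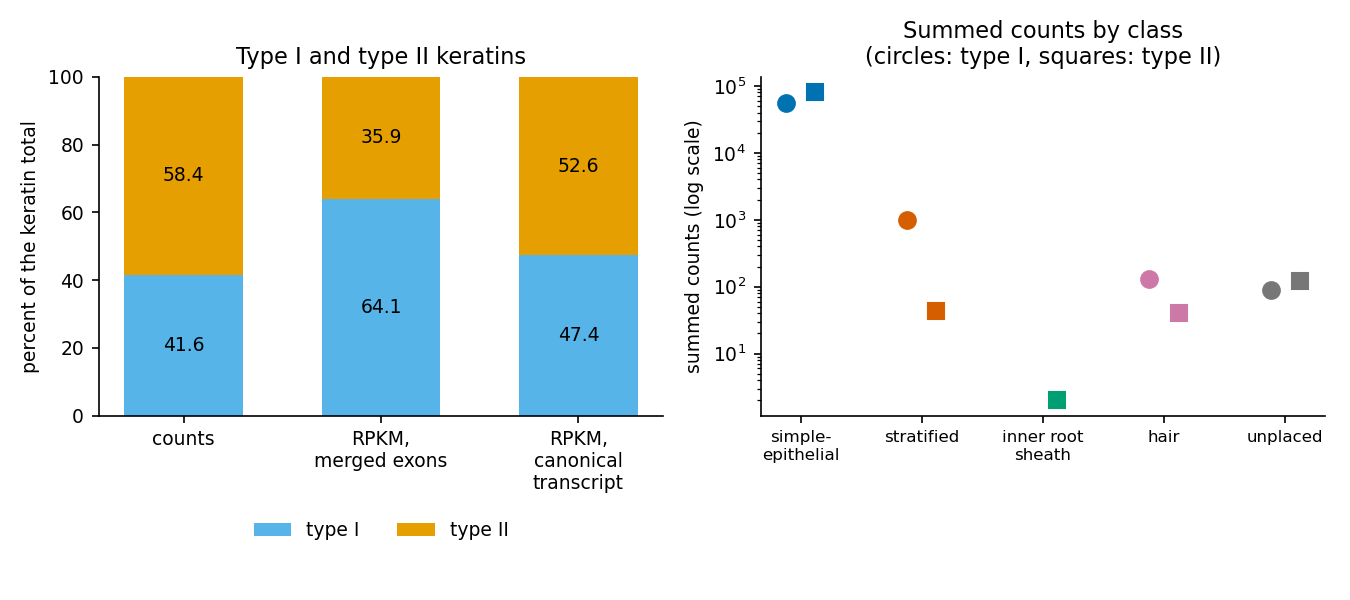
Left, percent of the keratin total in type I (blue) and type II (orange) genes, by counts, by RPKM on merged exons and by RPKM on canonical transcripts. Right, summed counts by class on a log axis, circles for type I and squares for type II. Type I is 41.6%, 64.1% and 47.4% on the 3 scales, and stratified keratins hold 1001 counts in type I against 44 in type II; type I inner root sheath keratins had 0 counts and are not drawn.

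In counts, the balance between the types differed from class to class, and each class total rested largely on few genes. Stratified keratins had 1001 counts in type I genes, mostly from KRT10 with 525 and KRT15 with 425. Their type II genes had 44 counts, a ratio of 22.8. With KRT80 counted as stratified and KRT17 as a hair follicle keratin, these were 998 and 167, a ratio of 5.98. Hair keratins had 130 counts in type I genes, 105 of them from KRT32, and 40 in type II genes, 34 of them from KRT81. The order of counts was the opposite for simple-epithelial keratins, with 56197 in type I and 80473 in type II genes. It was also the opposite for the genes not placed, with 88 in type I and 123 in type II, all from KRT80. In RPKM on merged exons, simple-epithelial totals were 905 in type I and 515 in type II. Totals of the genes not placed were 1.32 in type I and 1.24 in type II. Stratified and hair keratins kept their order on that scale, at 14.6 against 0.641 and at 2.95 against 0.895. The inner root sheath set had 0 and 2 counts, the latter from KRT75, which is too few to give an order. All 8 type I genes of the stratified class had at least 1 count, whereas 7 of its 12 type II genes had none. Across all classes, 10 of 29 type I genes and 5 of 26 type II genes reached 10 counts. Both shares, 34.5% and 19.2%, were under the 62.8% of all protein-coding genes.

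Keratins were next read as the pairs in which they are known to polymerise, using 14 textbook pairs that were listed after the values had been seen. Both partners reached 10 counts in 4 pairs, 1 partner in another 4, and neither in 6. By this count limit the complete pairs were KRT8 with KRT18, KRT7 with KRT19, KRT8 with KRT20, and KRT6A with KRT16. On merged exons, however, KRT7, KRT20, KRT6A and KRT16 were under an RPKM of 1, at 0.902, 0.851, 0.526 and 0.195. On canonical transcripts KRT7 was at 2.22. Of these 14 pairs, KRT8 with KRT18 was the one in which both partners exceeded an RPKM of 100, and KRT8 with KRT19, which was not on the list, would also do so. KRT10 was measured at 525 counts without its epidermal partners, as KRT1 and KRT2 had 0. KRT15 was at 425 counts while KRT5 had 5, and KRT13 at 25 while KRT4 had 1. In each of these incomplete pairs the partner that reached 10 counts was the type I gene. KRT10 was counted with both KRT1 and KRT2. The list held no pair for KRT80 or KRT81, type II genes with 123 and 34 counts.

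Keratin genes lie in a type II cluster and a type I cluster, with members of at least 10 counts in both. The chromosome 12 cluster spans 783911 bp (chr12:52168996-52952906) with 26 type II genes and KRT18, the type I exception. KRT8 and KRT18 are neighbours at its end, on opposite strands, and their annotated spans overlap by 1084 bp. The counts were made with strand, which separates reads from opposite strands. The chromosome 17 cluster spans 970178 bp (chr17:40654665-41624842) with 28 type I genes, all on the minus strand. KRT19 (chr17:41523617-41528308) and KRT15 (chr17:41513745-41522529) are adjacent there, 1087 bp apart, and KRT15 lies downstream of KRT19. On the other side of KRT19, KRT9 had 2 counts and KRT14 had 1. Whether transcripts running past the end of KRT19 add to the KRT15 counts was not tested.

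**Figure D3:**
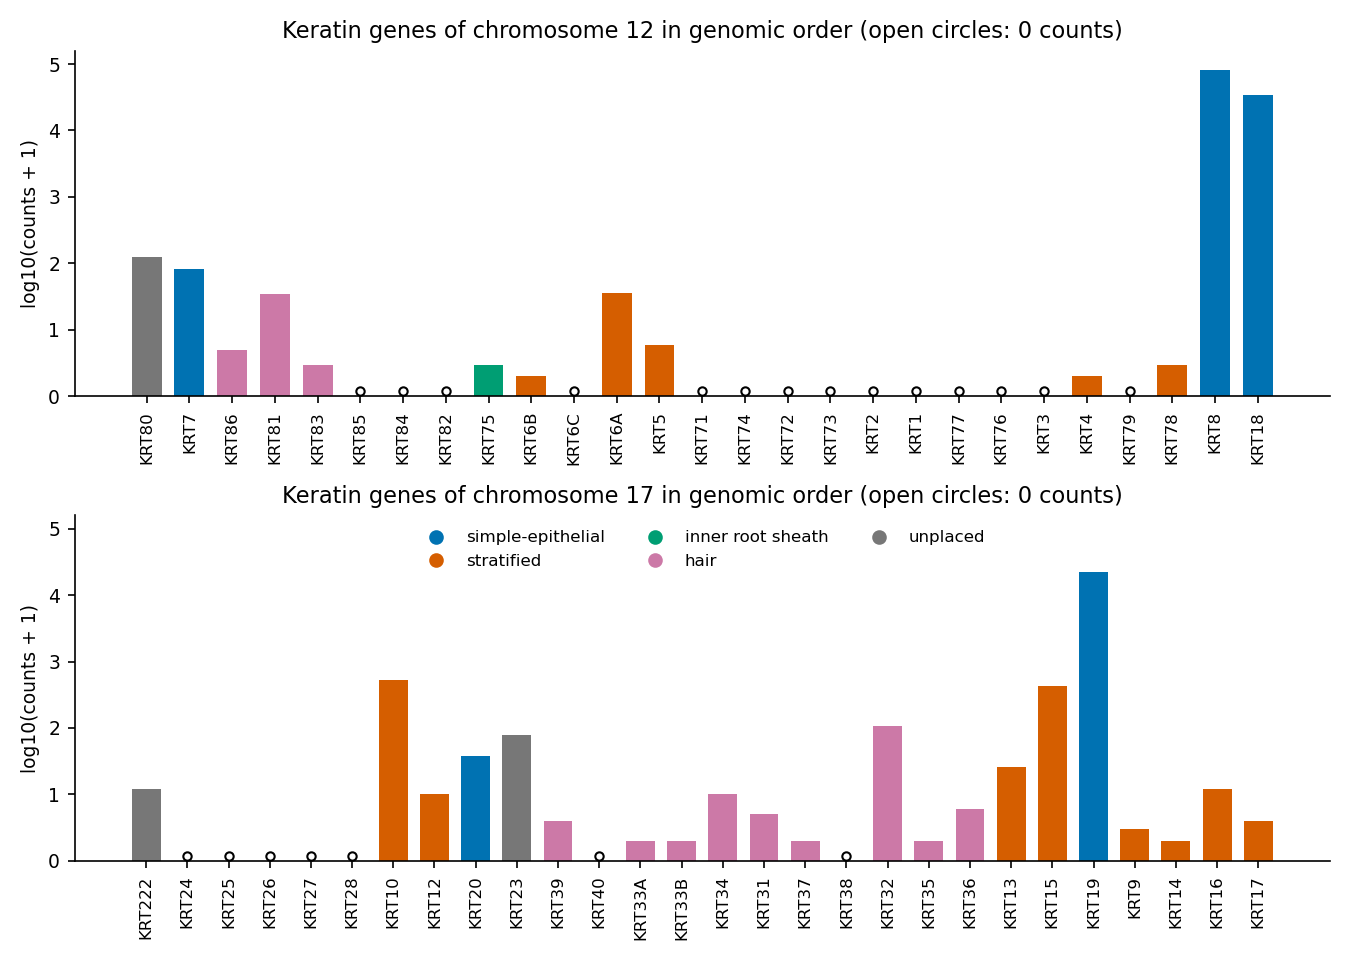
Keratin genes of chromosome 12 (top) and chromosome 17 (bottom) in genomic order, with bars for log10(counts + 1) coloured by class and open circles for genes with 0 counts. KRT8 and KRT18 stand at the end of the chromosome 12 cluster and KRT19 near the end of the chromosome 17 cluster, next to KRT15 at 425 counts, with most genes between them at or near 0.

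Counts were also assigned to keratin pseudogenes. The 51 pseudogenes named for KRT8 held 10862 counts, 13.5% of the count of KRT8 itself, and 3 of them had 96.1% of these counts. KRT8P3 had 4148 counts, KRT8P45 had 3395 and KRT8P33 had 2900. Aligned to the KRT8 coding sequence, these 3 were 97.1%, 95.6% and 95.8% identical. The 67 pseudogenes named for KRT18 held 1556 counts, 4.55% of KRT18, led by KRT18P17 with 593. The 5 named for KRT19 held 181, or 0.826% of KRT19, all in KRT19P1. Of the 75-base stretches of the canonical KRT8 transcript, 18.8% also occur without a mismatch in the transcript of another keratin-named gene, most often KRT8P3, and for KRT18 the share was 6.50%. In total, 29 of the 55 members shared no such stretch with another keratin-named gene. Whether the pseudogene counts came from their own transcripts or from misplaced keratin reads was not tested.

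**Figure D4:**
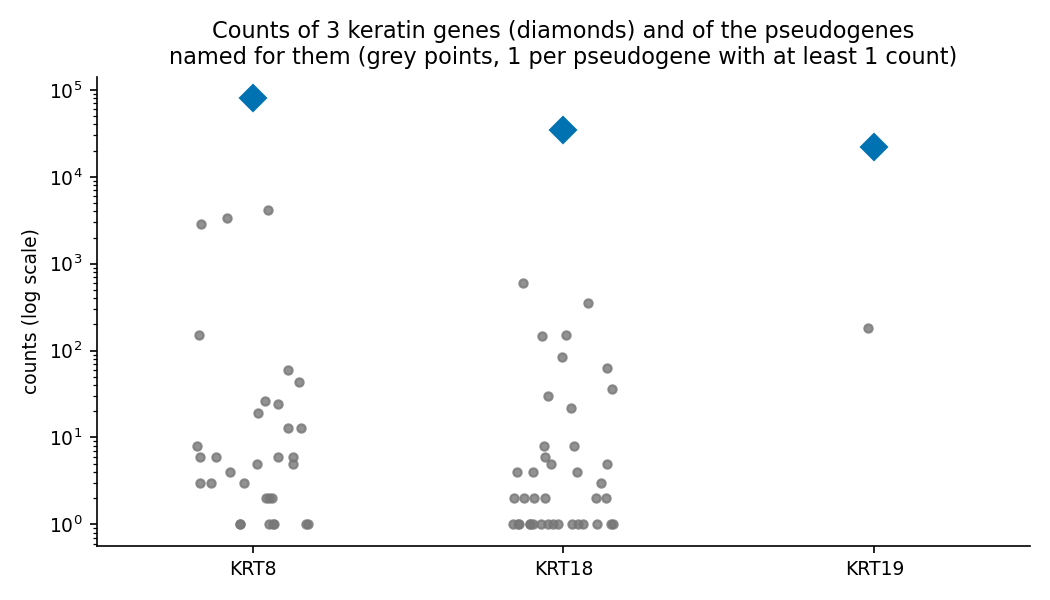
Counts on a log axis of KRT8, KRT18 and KRT19 (diamonds) and of the pseudogenes named for them (grey points, those with at least 1 count). KRT8P3, KRT8P45 and KRT8P33 form a group between 2900 and 4148 counts under KRT8 at 80391, the highest KRT18 pseudogene is at 593, and KRT19 has 1 pseudogene with counts, at 181.

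Several low members are near-copies of each other, and whether reads were misplaced among them was not tested. Of stretches of read length in the canonical transcript, 26.2% in KRT6A, 34.6% in KRT6B and 42.5% in KRT6C also occur in another keratin-named gene. The share was 36.6% for KRT81 and 30.3% for KRT86, but 3.55% for KRT83. The coding sequences of KRT6A, KRT6B and KRT6C are 97.5% to 98.5% identical, and their counts were 35, 1 and 0. KRT81 is 90.1% identical to KRT86 and 89.3% to KRT83, with counts of 34, 4 and 2. KRT81 also lies within the span of KRT86, with 5622 bp in common, but on the opposite strand, which counting with strand separates. The coding sequences of KRT8, KRT18 and KRT19 were less like those of the members compared with them here. KRT8 and KRT7 share 68.5% of aligned coding bases, KRT18 and KRT19 58.1%, and KRT19 and KRT15 63.1%. The medians over all pairs were 56.9% in type I and 62.1% in type II.

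Promoter windows of RefSeq (GRCh38.p14, 250 bases before to 50 after the start) matched 34 of the 55 members by symbol. No window was used for KRT1, KRT6A, KRT6B, KRT6C, KRT7, KRT13, KRT14, KRT15, KRT16, KRT17, KRT18, KRT19, KRT23, KRT72, KRT77, KRT78, KRT80, KRT81, KRT83, KRT86 and KRT222. Where a member had several windows, the one nearest to the start of its canonical transcript was taken. The windows of 16 matched members, or 47.1%, held the TATA box letters TATAAA on the gene's strand beginning between positions -35 and -20 from the start, against 2.21% of all 35116 windows. On either strand and at any position, 21 of them (61.8%) held TATAAA, against 11.5% of all windows. The GC box letters GGGCGG, on either strand, were found in 6 matched members (17.6%) and in 45.0% of all windows. The motifs do not overlap in letters. CpG dinucleotides were few, with a median of 2 a window against 14.

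By class, TATAAA in this position was found in 8 of 14 hair, 4 of 8 inner root sheath, 3 of 9 stratified and 0 of 2 simple-epithelial members with a window. Only 4 of the 15 members that reached 10 counts had a window, and KRT18 and KRT19 were among those without one. Of the 4 matched members, 1 held the motif, namely KRT10, and of the 30 under 10 counts, 15 did. These windows are too few to compare detected with undetected keratins. The KRT8 window, among these 4 and among the 2 simple-epithelial ones, belongs to a start 21393 bp upstream of that of the canonical transcript. KRT10 and KRT25 are printed because they share the motif near position -30 but had 525 and 0 counts, and KRT20 because it is the intestinal keratin of the set and holds neither motif. The 250 bases before the start are chr17:40822615-40822864 for KRT10, chr17:40755332-40755581 for KRT25 and chr17:40885243-40885492 for KRT20, all on the minus strand, with TATAAA in capitals.
KRT10: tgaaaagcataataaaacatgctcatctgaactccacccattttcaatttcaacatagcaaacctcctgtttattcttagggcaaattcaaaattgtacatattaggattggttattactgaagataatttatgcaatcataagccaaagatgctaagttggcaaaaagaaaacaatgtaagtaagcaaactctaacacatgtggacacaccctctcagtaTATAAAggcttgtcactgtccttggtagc
KRT25: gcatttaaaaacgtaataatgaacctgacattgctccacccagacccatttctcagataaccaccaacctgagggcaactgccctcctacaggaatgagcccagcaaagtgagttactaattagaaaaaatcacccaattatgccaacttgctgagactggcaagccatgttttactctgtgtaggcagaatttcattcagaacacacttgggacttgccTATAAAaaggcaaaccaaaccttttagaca
KRT20: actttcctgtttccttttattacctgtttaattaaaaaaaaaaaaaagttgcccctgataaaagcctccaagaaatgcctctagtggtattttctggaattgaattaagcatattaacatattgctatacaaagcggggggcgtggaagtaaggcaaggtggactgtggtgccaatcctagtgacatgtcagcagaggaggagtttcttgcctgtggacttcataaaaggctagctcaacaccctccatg
The motif begins at position -29 in KRT10 and at -30 in KRT25. A match of these letters is a description of the window and does not show binding.

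Genes that anchor or organise keratin filaments were read against the 62.8% of all protein-coding genes with 10 or more counts and their median RPKM of 0.589. Desmosomes attach keratins to cell-cell junctions, and 9 of 14 desmosome genes reached 10 counts, a share near that of all genes, with a median RPKM of 2.21. The highest were JUP (plakoglobin) at an RPKM of 41.2, PERP at 38.2 and PKP3 at 29.2. DSG4 had 0 counts. Of members named after their values were seen, PKP1, DSG1, DSG3 and DSC1 had 1 or 2 counts, whereas DSC3, which like them is known from stratified epithelia, had 387. All 10 genes of the plakin and hemidesmosome list passed 10 counts, with a median RPKM of 7.12, led by CD151 at 78.4, the linker PLEC (plectin) at 61.5 and ITGB4 at 47.6. Of 7 genes that organise or modify keratins, 6 passed, with a median RPKM of 1.93, led by PRMT1 at 126, FAM83H at 23.5 and CSNK1A1 at 14.6.

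Genes of the cornified envelope, which replaces the plasma membrane of terminally differentiated keratinocytes, were nearly absent. Of 10, 1 reached 10 counts, against 62.8% of all protein-coding genes. This was TGM1 with 31 counts, at an RPKM of 0.365. The next were TGM3 at 0.0490 and CDSN at 0.0345. FLG, LORICRIN, SPRR1A, SPRR1B, SPRR2A and SPRR3 had 0 counts, and the median RPKM was 0.

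Among 17 other intermediate filament genes, 11 reached 10 counts, near the 62.8% of all protein-coding genes, and 5 an RPKM of 1, against 44.6%. Their median RPKM was 0.205, against 0.589. The nuclear lamins led, with LMNB2 at an RPKM of 159, LMNA at 105 and LMNB1 at 29.4. GFAP, NEFM, NEFH and BFSP2 had 0 counts. VIM (vimentin), the filament of mesenchymal cells, was singled out after its value was seen, at 15 counts and an RPKM of 0.128 against 514 for KRT8. Of 18 transcription factors of keratin-rich epithelia, 10 reached 10 counts, near the 62.8% of all protein-coding genes, with a median RPKM of 0.238. KLF5 was the highest at 6.01, followed by EHF at 5.51 and OVOL1 at 3.30, whereas FOXN1 and CDX1 had 0 counts.

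**Figure D5:**
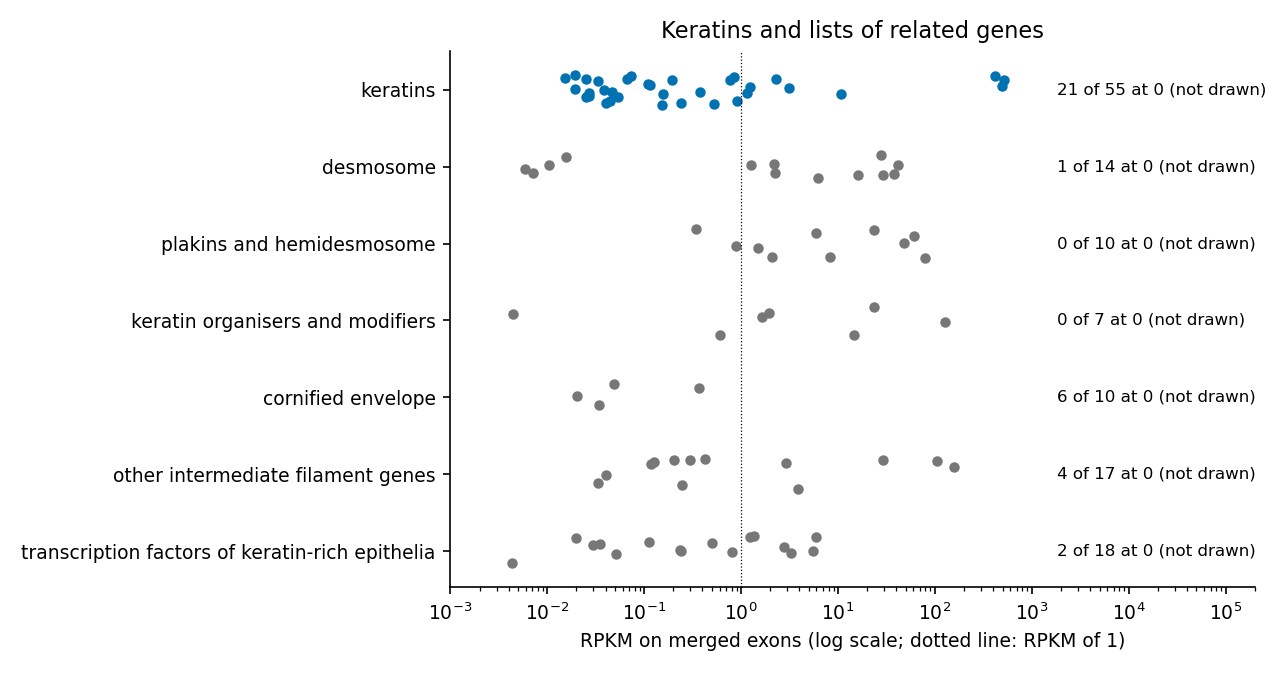
RPKM on merged exons, on a log axis, of the keratins (blue) and of 6 lists of related genes (grey), with 1 point per gene; genes with 0 counts are not drawn and are counted at the right, and the dotted line marks an RPKM of 1. KRT8, KRT18 and KRT19 lie to the right of all other genes shown, the highest of which is LMNB2 at 159, and the cornified envelope genes stay under 1.

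The label of an epithelial colorectal line was compared with marker genes. The share of all protein-coding genes that reached 10 counts, 62.8%, is the background for each list. With 3 to 7 genes a list, the shares are coarse. All 7 epithelial markers reached 10 counts, of which 3 are the leading keratins themselves and EPCAM had an RPKM of 182. Of 5 intestinal markers, 1 did, CDX2 with 65 counts, while VIL1 and LGALS4 had 4 each, CDH17 had 3 and CDX1 had 0. Of the intestinal genes, CDX2 at an RPKM of 0.813 and KRT20 at 0.851 were under the expression filter of 1. Both lay above the median of all protein-coding genes, 0.589, which includes 4779 genes with 0 counts. The other 4 intestinal genes were under 10 counts. Of 5 squamous markers, 1 passed, SFN with 3685 counts, and TP63 had 5. For other cells, 3 of 6 mesenchymal or fibroblast markers (FN1 538, COL1A1 199 and VIM 15 counts), 1 of 5 blood markers (HBB 23) and 1 of 3 endothelial markers (PECAM1 17) reached 10 counts, and COL1A2, DCN, CDH2 and PTPRC had 0. The summed level was 33.1 CPM for the mesenchymal, 1.58 CPM for the blood and 0.880 CPM for the endothelial list. Their part in the low keratin values was not tested.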

How the data were processed

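RNA was extracted from HCT116 cells, and poly(A)-selected, strand-specific libraries were read as single-end reads of 75 bases. The authors mapped reads to hg38 with ContextMap using BWA and deposited raw counts per gene, made with featureCounts in a strand-specific manner on Gencode version 25, without normalization. The columns were assigned to samples by name. Since all 12 columns were identical, they were counted as 1 sample, and the planned edgeR test was not run. Of 58037 identifiers, 56948 matched GENCODE v44 without version suffix, including all 55 keratins. The members, gene lists and classes were chosen with earlier results of these data known.

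CPM are relative to the total of 22720718 counts. RPKM use the merged exons of GENCODE v44 or, as an alternative, the canonical transcript. A threshold of 10 counts was set for detection. Intervals of 95% are exact Poisson for levels, Wilson for class shares and exact binomial for type shares, and like the limit of 3 counts they cover counting error only. Coding sequences were aligned globally and pseudogenes locally (match 1, mismatch -1, gap opening -3, extension -0.5) with Biopython 1.88 in Python 3.11.15, and intervals were computed with scipy 1.17.1. The comparison of columns, the merging of exons, the search for shared stretches and the intervals were tested on simulated data. Every keratin with 10 or more counts was to be named with its values and the others with their count, and of each related list the 3 highest genes and those at 0. Of the pseudogenes, those among the 3 with most counts for a keratin were named. Marker genes and the 14 keratin pairs were named after their values were seen. Alternatives were other count limits, lengths and totals, and added pseudogene counts. Protein sequences were not used here, so the planned protein comparison was made on coding sequences. One gene and one sequence stretch are not reported here.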

Additional observations from a re-analysis of the deposited data

Results flagged for a closer look

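The following values come from genes that are not members and whose counts exceeded 3, the limit that a count of 0 allows. Pseudogenes named for KRT8 had 10862 counts. Those named for KRT18 had 1556 counts, and those named for KRT19 had 181. The lncRNA gene KRT10-AS1, which overlaps KRT10 by 3514 bp on the opposite strand, had 359 counts against 525 for KRT10. The 94 keratin-associated protein genes (KRTAP), whose products surround hair keratins, had 429 counts in all, of which KRTAP2-3 had 311. Of these genes, 79 had 0 counts and 5 reached 10 counts, against 62.8% of all protein-coding genes.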

How the results depend on the processing

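No paired analysis was possible because the 12 columns were copies of 1 profile. For this reason the planned tests with a replicate block, with DESeq2, without a filter and without single replicates were not run. The number of keratin genes called detected, 15 at 10 or more counts, was 23 at 3 or more counts and 8 at an RPKM of at least 1, which follows from the weaker or stricter requirement. It was 12 at 30 or more counts and 13 at a CPM of at least 1. Of all protein-coding genes, 62.8% had 10 or more counts and 44.6% an RPKM of at least 1. Their shares at 3 counts, at 30 counts and at a CPM of 1 are not given here. Among the 29 members that share no 75-base stretch with another keratin-named gene, 10 reached 10 counts. This alternative was chosen after the data were seen. The simple-epithelial share, 99.0% of counts, was 98.5% in RPKM on merged exons and 99.2% on canonical transcripts. In alternatives added after seeing the data, it was 99.0% with pseudogene counts included and 97.5% without KRT8. The log2 ratio of type I to type II, -0.49 in counts, turned to 0.83 in RPKM on merged exons and to 6.32 without KRT8 and KRT18. It was -0.15 in RPKM on canonical transcripts and -0.63 with pseudogene counts added. The change without KRT8 and KRT18 follows from removing 80391 type II and 34234 type I counts. The change on merged exons follows from dividing by lengths of 6881 bp for KRT8, 3069 bp for KRT18 and 2336 bp for KRT19. Their canonical lengths are 1784, 1413 and 1390 nt. Which length fits the transcripts present was not tested. With canonical lengths 7 of the 15 levels, and without mitochondrial genes (10.4% of counts) in the total 5 of the 15, moved beyond their counting intervals, and 9 instead of 8 members had an RPKM of at least 1 under either change. Genes with 1 to 9 counts cannot be ranked at this depth.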
